A study of Homo sapiens with 6 samples.

Results

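PRSS33 and 9 other genes of the epithelial serine protease network were followed in HCT116 cells after knockdown of POU2F1. The 10 genes (PRSS33, PRSS3, PRSS8, PRSS16, PRSS22, PRSS23, ST14, TMPRSS2, TMPRSS4 and SPINT1) were taken by symbol from 20474 annotated genes, and each symbol matched 1 row. PRSS33 was chosen because an earlier analysis of the same libraries had called it higher after the knockdown, so its difference is given here as a description that supports nothing further. The other genes were added as relatives of PRSS33 or as parts of the same proteolytic system.

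HCT116 is a human colorectal cancer cell line. The control group (sicontrol, 3 libraries) received a non-targeting siRNA and is labelled WT, and the other group (siPOU2F1, 3 libraries) is labelled POU2F1 knockdown and had siRNA directed at POU2F1, the gene of the octamer-binding transcription factor OCT1. RNA was taken 48 h after transfection and polyA RNA was sequenced, with 1 cell line in both groups. Whether replicates were separate cultures is not stated in the labels, so the p-values measure only how far these libraries differ, possibly for technical reasons. Values by library are given throughout in the order of replicates 1, 2 and 3.

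Serine proteases of the trypsin type are made as inactive precursors and cut proteins after activation, using a histidine, an aspartate and a serine in the active site. At epithelial surfaces matriptase, encoded by ST14, and prostasin, encoded by PRSS8, act in a cascade that is held in check by the Kunitz-type inhibitor HAI-1, encoded by SPINT1. Known targets of such proteases include the epithelial sodium channel, the receptor PAR2, the adhesion protein EpCAM and the precursor of hepatocyte growth factor.

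The coding stretch around the active-site serine is shown for the 7 members in which it was found, because it can be compared base by base with that of PRSS33. Each line gives 33 bases of the GENCODE 29 transcript with the longest coding sequence, 5′ to 3′, with the serine codon in capitals.
PRSS33: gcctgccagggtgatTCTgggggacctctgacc
PRSS22: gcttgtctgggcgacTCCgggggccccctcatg
PRSS8: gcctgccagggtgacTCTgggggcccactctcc
PRSS3: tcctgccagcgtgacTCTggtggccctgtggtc
ST14: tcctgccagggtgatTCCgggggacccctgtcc
TMPRSS2: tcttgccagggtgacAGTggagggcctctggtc
TMPRSS4: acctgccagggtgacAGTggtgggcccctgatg

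Of the 10 members, 6 held the full active-site motif of 5 codons (Gly, Asp, Ser, Gly, Gly), as did 0.585% of 19991 coding genes searched. PRSS3, which encodes mesotrypsin, a trypsin known for resisting protein inhibitors, held the last 4 codons of the motif but not the first, and 1.46% of coding genes held those 4. PRSS23, PRSS16 and SPINT1 held neither form. PRSS23 encodes a secreted protease, PRSS16 the thymus-specific serine protease of another protease family, and SPINT1 an inhibitor. Over the 33 bases, ST14 was identical to PRSS33 at 29 positions, PRSS8 at 28, PRSS3 at 25, TMPRSS2 and TMPRSS4 at 24, and PRSS22 at 22. So short a stretch does not measure likeness over the whole sequences, which were not aligned.

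PRSS33 (ENSG00000103355) lies on the minus strand of chromosome 16, at 2783953 to 2787948 of GRCh38. Its transcript of 1694 bases has 6 exons and a coding sequence of 840 bases, and shared 0% of its 50-base words with transcripts of other annotated genes on either strand. The same share was 0% for PRSS16, PRSS22, PRSS23, ST14, TMPRSS2, TMPRSS4 and SPINT1. It was 6.32% for PRSS3, which shares sequence with trypsinogen copies and with an antisense gene, and 14.5% for PRSS8, which lies across an antisense gene. The strand setting of the counting is not given in the sources used here, so reads of overlapping genes on opposite strands cannot be told apart for those genes, nor for PRSS23, of whose exonic bases 21.2% overlap FZD4.

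The members spanned a wide range of levels in control cells. Levels are in FPKM, fragments scaled by transcript length and by library size, which can be set side by side between genes. ST14 (66.4 ± 9.10 FPKM) and SPINT1 (61.9 ± 8.5 FPKM; SD, n = 3 here and throughout) were the highest and lay within each other's spread. PRSS3 followed at 28.8 ± 5.05 FPKM and PRSS23 at 12.9 ± 6.09 FPKM. PRSS22 stood at 5.22 ± 0.274 FPKM, above TMPRSS2 (2.92 ± 0.609 FPKM), PRSS16 (2.72 ± 0.231 FPKM) and PRSS33 (2.49 ± 0.196 FPKM), whose ranges overlapped. PRSS8 (0.474 ± 0.270 FPKM) and TMPRSS4 (0.262 ± 0.213 FPKM) were the lowest and overlapped as well.

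**Figure D1:**
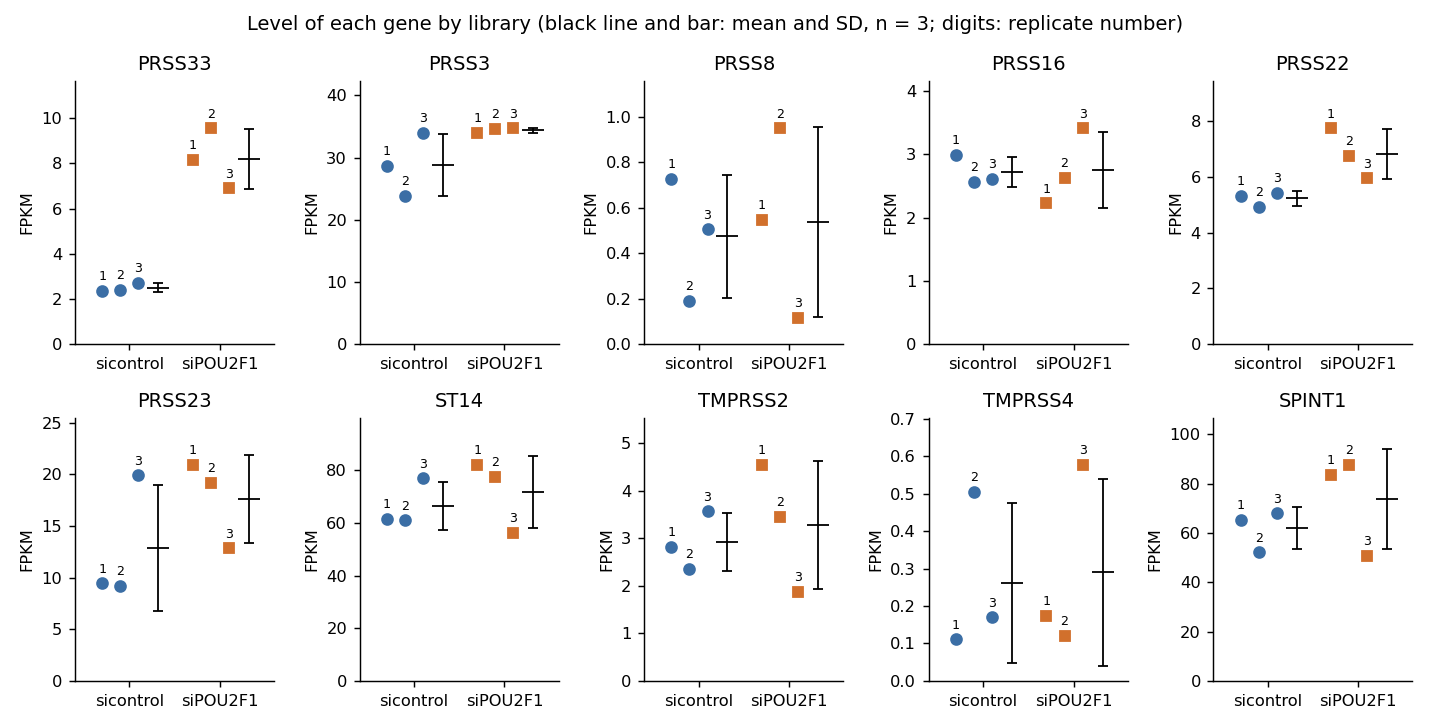
FPKM of each of the 10 genes in the 3 sicontrol libraries (circles) and the 3 siPOU2F1 libraries (squares), on linear axes that start at 0. Digits are replicate numbers and black lines and bars are means and SD. PRSS33 lies between 2.35 and 2.72 FPKM in sicontrol and between 6.89 and 9.55 FPKM in siPOU2F1, whereas the groups overlap for PRSS8, PRSS16, PRSS23, ST14, TMPRSS2, TMPRSS4 and SPINT1.

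POU2F1, the targeted gene, was lower in each siPOU2F1 library, at 1.87, 1.69 and 1.73 FPKM against 4.16, 3.60 and 4.26 FPKM in sicontrol. The groups did not overlap, and p was 0.1 in an exact permutation test (two-sided), a floor set by having 3 libraries a group. The log2 fold change was -0.99 (SE 0.14; adjusted p = 0.0333) in limma, fitted to log2(FPKM + 0.5) of the 11831 genes that averaged 1 FPKM or more. That call was lost with no filter on low genes (adjusted p = 0.065), with the replicate block (0.297) and without any 1 library other than siPOU2F1 replicate 3 (0.114 to 0.22). In bulk RNA, fewer cells with a transcript and less of it per cell cannot be told apart, here or for the genes that follow.

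Libraries of a group also differed from each other. Across tested genes, siPOU2F1 replicate 3 correlated at r = 0.977 with sicontrol replicate 2 but at 0.946 and 0.948 with siPOU2F1 replicates 1 and 2. These are correlations across genes, which are not independent replicates. Of 11 intestinal epithelial markers 7 averaged at least 1 FPKM, led by KRT18, while CDX1, KRT20, LGALS4 and CEACAM5 did not. The summed level of the 11 was 2705 to 3628 FPKM in sicontrol and 3740 to 5166 FPKM in siPOU2F1, so these sums did not overlap between the siRNAs. Nearly all of the sum was KRT18, KRT8 and KRT19, with log2 differences of 0.56 (adjusted p = 0.087), 0.98 (0.149) and 0.20 (0.528) in limma, none of them called, and the groups overlapped for KRT8 and KRT19. EPCAM (0.015), CDH1 (0.11) and CDX2 (0.15) were not called either. Nor was VIL1, with means of 1.96 FPKM in sicontrol and 4.22 FPKM in siPOU2F1 and overlapping groups (0.93, limma, adjusted p = 0.308). The part of the keratins in the member results was not tested. Among 11 markers of leukocytes, eosinophils and mast cells, PTPRC, CLC and CPA3 were listed at 0 in all 6 libraries, and the summed level was 6.29 to 8.37 FPKM in sicontrol and 6.01 to 7.90 FPKM in siPOU2F1, mostly from CD68. The markers of fibroblasts and endothelium summed to between 2.56 and 4.32 FPKM over the 6 libraries, with COL3A1 and DCN at 0. Those of exocrine pancreas and thymus summed to at most 0.117 FPKM.

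PRSS33, a secreted trypsin-like protease also described in eosinophils and macrophages, was the member with the clearest difference between the siRNAs. The controls had 2.35, 2.41 and 2.72 FPKM, and the siPOU2F1 libraries 8.16, 9.55 and 6.89 FPKM. Each siPOU2F1 library was thus above each control, and the lowest of them was replicate 3, the library whose profile was nearest to that of a control. The means were 2.49 ± 0.196 and 8.20 ± 1.33 FPKM, a 3.29-fold ratio.

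On the log2(FPKM + 0.5) scale, which understates changes of low genes, PRSS33 differed by 1.53 (SE 0.16), and the 95% interval ran from 1.16 to 1.9. It ranked 4 by size among the 47 called genes that were higher and 13 among all tested genes that were higher, called or not. The value that chose it was an adjusted p of 0.015 (limma). That call was lost when any 1 library other than siPOU2F1 replicate 3 was left out (adjusted p from 0.0751 to 0.114), while the log2 difference stayed between 1.42 and 1.58 in those fits. Control levels were near 2.5 FPKM, and absolute read depth is unknown, so the reads behind them cannot be given.

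**Figure D2:**
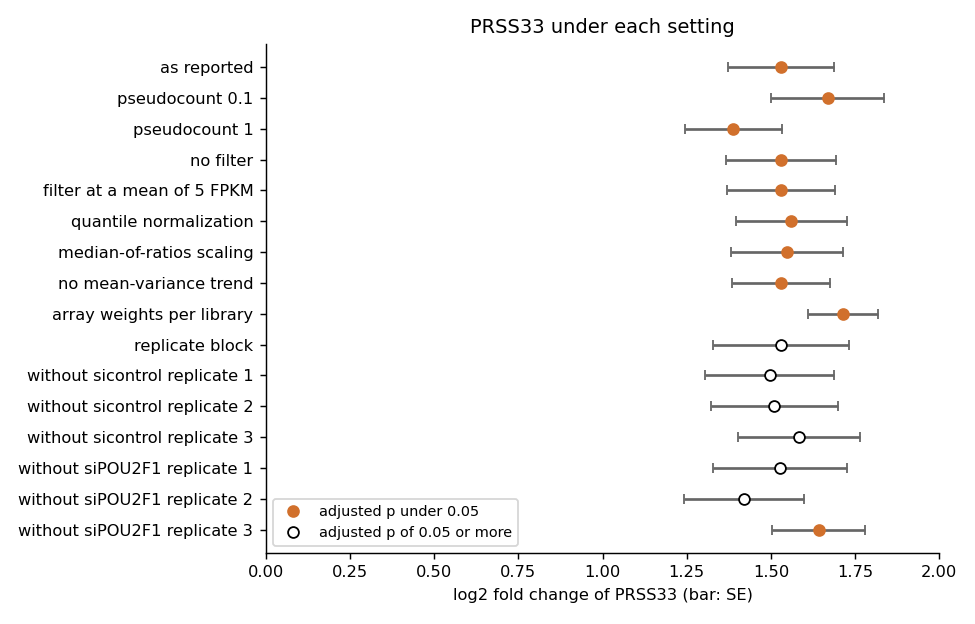
Log2 fold change of PRSS33 with its SE as reported and under each of 15 alternative settings. Filled points have an adjusted p under 0.05 (limma). The value runs from 1.39 to 1.71, and the open points are the replicate block and the fits without a library other than siPOU2F1 replicate 3. The filter at a mean of 5 FPKM kept PRSS33 only through its siPOU2F1 libraries.

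PRSS33 was 1 of 8 members tested, and the 1 member called, where 1.24% of all tested genes were called, 0.397% of them higher and 0.845% lower (shares of all tested genes). Because PRSS33 was chosen from this contrast, nothing is read from that count. PRSS8 and TMPRSS4 stayed below a mean of 1 FPKM and were not tested. Of the 7 tested members other than PRSS33, 6 had a positive log2 fold change, and their median was 0.22 beside -0.013 over all tested genes. Of those 7 members, the groups did not overlap for 2, PRSS22 and PRSS3, both higher in siPOU2F1. Of all tested genes 23.4% did not overlap, 11.3% higher and 12% lower. The groups of PRSS33 did not overlap either, but PRSS33 was chosen from this contrast and is left out of that count.

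PRSS22, the relative of PRSS33 known as tryptase epsilon, had 5.33, 4.91 and 5.43 FPKM in sicontrol and 7.73, 6.75 and 5.94 FPKM in siPOU2F1. All 3 siPOU2F1 libraries lay above the controls, with replicate 3 the nearest to them. That difference, 0.35 on the log2 scale (SE 0.14; 95% interval 0.019 to 0.67), missed the threshold in limma (adjusted p = 0.253). After the knockdown the mean of PRSS33 (8.20 FPKM) stood above that of PRSS22 (6.81 FPKM). PRSS33 was the higher in each siPOU2F1 library, though their ranges across libraries overlapped. In controls PRSS22 was the higher in each library.

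PRSS3 measured 28.6, 23.8 and 33.95 FPKM in sicontrol and 33.98, 34.6 and 34.7 FPKM in siPOU2F1. The siPOU2F1 libraries were close to each other, and the highest control differed from the lowest of them by less than 0.1 FPKM. The log2 fold change was 0.27 (SE 0.14; limma, adjusted p = 0.347; 95% interval -0.063 to 0.60). Of its paralogs, PRSS2 was listed at 0 in all libraries and PRSS1 was at most 0.0994 FPKM, and the assignment of reads among them is uncertain.

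PRSS8, the prostasin gene, was low throughout, with 0.727, 0.189 and 0.505 FPKM in sicontrol and 0.547, 0.948 and 0.115 FPKM in siPOU2F1. Both its highest and its lowest library belonged to siPOU2F1. PRSS23 measured 9.44, 9.23 and 19.9 FPKM in sicontrol and 20.9, 19.2 and 12.8 FPKM in siPOU2F1. Sicontrol replicate 3 was thus about level with siPOU2F1 replicates 1 and 2, and the log2 difference was 0.50 (SE 0.32; limma, adjusted p = 0.42; 95% interval -0.26 to 1.27).

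The transmembrane proteases among the members, ST14, TMPRSS2 and TMPRSS4, did not differ beyond the spread of their libraries. ST14 measured 61.3, 60.9 and 76.9 FPKM in sicontrol and 81.9, 77.3 and 56.2 FPKM in siPOU2F1, so that siPOU2F1 held both the highest and the lowest value. The log2 difference was 0.10 (SE 0.17; limma, adjusted p = 0.757; 95% interval -0.30 to 0.51). TMPRSS2, which encodes a protease known for activating viral envelope proteins, had 2.82, 2.36 and 3.57 FPKM in sicontrol and 4.54, 3.45 and 1.87 FPKM in siPOU2F1. The pattern over libraries was like that of ST14, and the log2 difference was 0.096 (SE 0.30; limma, adjusted p = 0.872; 95% interval -0.60 to 0.80). TMPRSS4 lay between 0.111 and 0.576 FPKM, with its higher values in sicontrol replicate 2 (0.506 FPKM) and siPOU2F1 replicate 3.

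PRSS16 had 2.99, 2.56 and 2.61 FPKM in sicontrol and 2.22, 2.62 and 3.41 FPKM in siPOU2F1. Its extremes both fell in siPOU2F1, and the log2 difference was -0.0010 (SE 0.18; limma, adjusted p = 0.998; 95% interval -0.43 to 0.42).

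SPINT1, the inhibitor, measured 65.5, 52.2 and 67.96 FPKM in sicontrol and 83.5, 87.5 and 50.7 FPKM in siPOU2F1. Replicates 1 and 2 of siPOU2F1 were above all controls and replicate 3 was below them, and the log2 fold change was 0.22 (SE 0.22; limma, adjusted p = 0.595; 95% interval -0.31 to 0.75). The ratio of ST14 to SPINT1, a protease and its inhibitor, was 1.08 ± 0.124 in sicontrol and 0.991 ± 0.114 in siPOU2F1, a difference smaller than either spread.

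**Figure D3:**
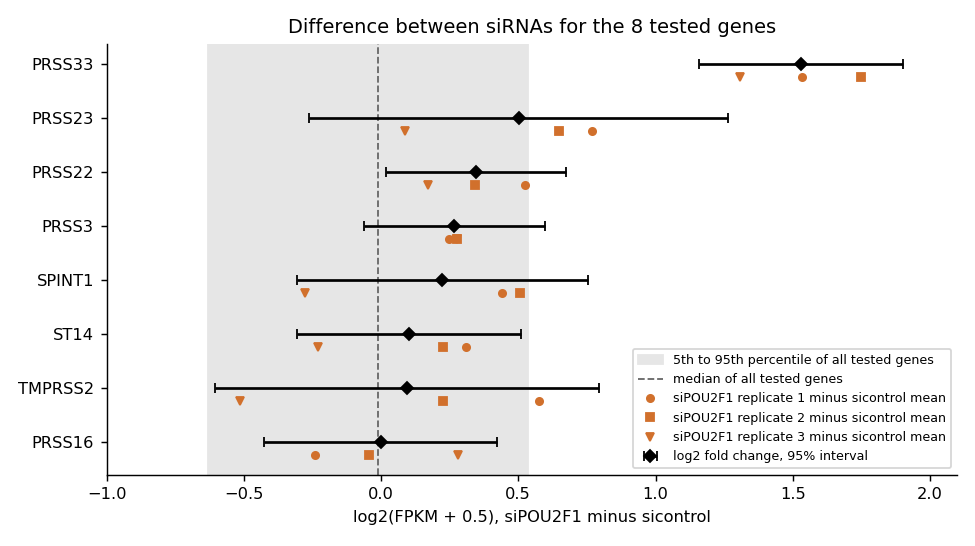
Log2 fold change of the 8 tested genes (diamonds, with 95% intervals from limma) and the log2 difference of each siPOU2F1 library from the sicontrol mean (small symbols). The grey band spans the 5th to 95th percentile of the log2 fold changes of all tested genes, -0.63 to 0.54. It is a band of differences between groups and so is no measure for single libraries. PRSS33, chosen for its rise, has 1.31 to 1.75 in the siPOU2F1 libraries, whereas replicate 3 is below the control mean for SPINT1, ST14 and TMPRSS2.

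Several members had the same lowest library within each group. For PRSS22, PRSS23, ST14, TMPRSS2 and SPINT1, which are 5 of the 8 tested members, sicontrol replicate 2 was the lowest control and siPOU2F1 replicate 3 the lowest knockdown library. Over all tested genes 27.2% had these lowest libraries, and so did PRSS8 among the untested members. Without siPOU2F1 replicate 3, SPINT1 (0.47, adjusted p = 0.0431) and PRSS22 (0.43, adjusted p = 0.0471) were called higher along with PRSS33 (1.64, adjusted p = 0.00424), but 24.97% of all tested genes were called in that limma fit.

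PRSS33 lies in a cluster of serine protease genes on chromosome 16, and PRSS22, PRSS27, PRSS41 and PRSS21 are within 100 kb of it. PRSS22, at 2852727 to 2858170 on the minus strand, starts 70.2 kb away. PRSS41, which starts 10.5 kb from PRSS33, measured 0.141, 0.127 and 0.0496 FPKM in sicontrol and 0.165, 0.246 and 0.437 FPKM in siPOU2F1. Its groups did not overlap, but at these levels it was not tested. PRSS27 was between 0.594 and 0.614 FPKM in sicontrol and between 0.139 and 0.969 FPKM in siPOU2F1, and PRSS21 was listed at 0 in all 6 libraries.

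The other tested neighbours were not called. ELOB, a subunit of elongin complexes whose start is 10.7 kb from that of PRSS33, averaged 65.9 FPKM in controls and 71.7 FPKM after the knockdown (log2 fold change 0.11, 95% interval -0.24 to 0.47; limma, adjusted p = 0.695). SRRM2, a splicing factor, had 35.6 and 40.4 FPKM (0.17, 95% interval -0.094 to 0.44; adjusted p = 0.424). KCTD5 (-0.13) and FLYWCH2 (0.073) lie at the edges of the window, and ZG16B, with means of 0.659 and 0.799 FPKM, was not tested.

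**Figure D4:**
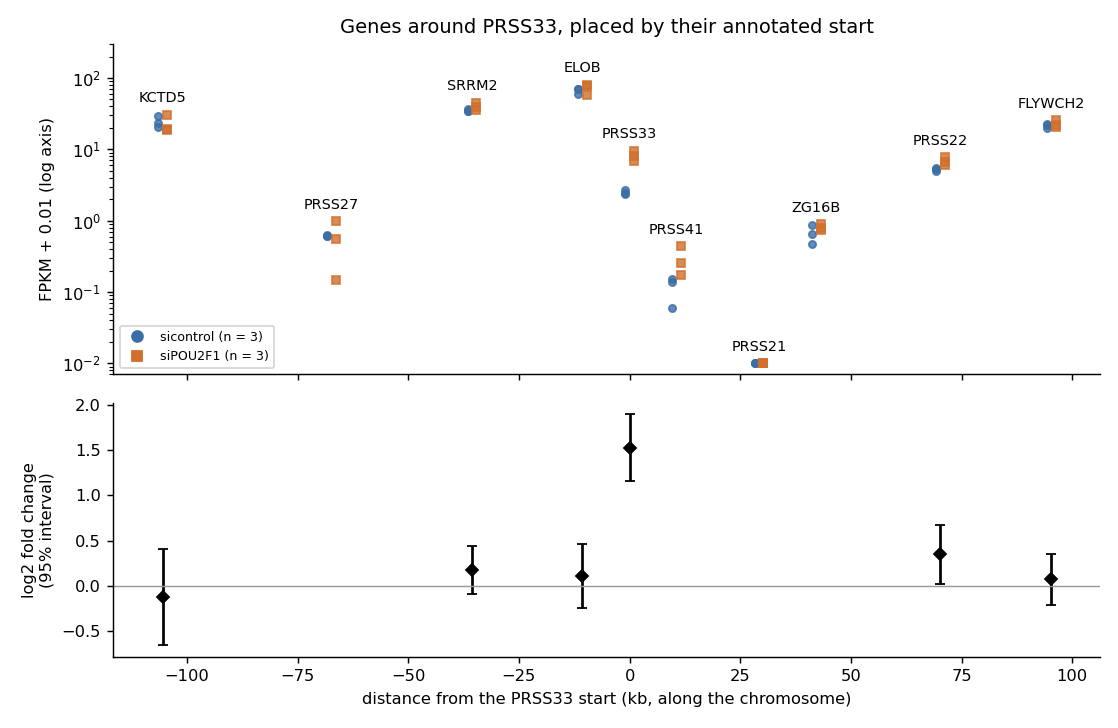
Genes of the tables whose bodies lie within 100 kb of PRSS33, placed by the distance of their annotated start from that of PRSS33. The upper panel gives FPKM + 0.01 in each library on a log axis, and the lower panel gives the log2 fold change with its 95% interval for the 6 tested genes, of which PRSS33 has 1.53 and the others between -0.13 and 0.35.

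Because the knockdown targets an octamer-binding factor, the DNA upstream of a PRSS33 start is shown, from RefSeq (GRCh38.p14). The start used is the more downstream of those annotated for PRSS33. The stretch therefore lies within the gene body given above, with 0 of its bases in annotated exons of PRSS33. The window of the other start, at 2787916 to 2788165, is not printed. The 250 bases at chr16:2787561-2787810, minus strand, are printed 5′ to 3′ and end at the base before the start.
PRSS33 upstream: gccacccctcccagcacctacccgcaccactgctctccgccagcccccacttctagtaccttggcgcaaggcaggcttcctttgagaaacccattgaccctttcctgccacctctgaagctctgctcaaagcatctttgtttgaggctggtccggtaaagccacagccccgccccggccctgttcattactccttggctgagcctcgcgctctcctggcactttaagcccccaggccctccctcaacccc

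The stretch is 61.6% G and C and has no capitals, since neither word searched was found in it. The octamer ATGCAAAT, read on both strands, was in 0 of the 8 promoter windows of 300 bases listed for 5 members (PRSS33, PRSS3, PRSS16, PRSS23 and SPINT1) and in 1.77% of 35116 windows of that length. Its first 6 bases, ATGCAA, which overlap the octamer, were in 1 of the 8, that of PRSS3, and in 10.1% of all windows. These letters describe the windows and say nothing of binding. The word AACTGCA, searched because an earlier look at these data had singled it out, was in the 3′ UTR of 0 of the 10 members, beside 11.5% of 18777 genes with a 3′ UTR of at least 20 bases.

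Among other tested genes, those whose profile over the 6 libraries was most like that of PRSS33 were SGK1, ZNF267, TM4SF1, SYP and GANAB. Likeness was the root mean square difference of log2(FPKM + 0.5) values, each centred on its own mean, which was 0.087 for SGK1, a serum- and glucocorticoid-regulated kinase (9.29, 9.71 and 10.7 FPKM in sicontrol, 33.8, 35.02 and 28.7 FPKM in siPOU2F1), and 0.18 for GANAB, the fifth in order. The median over tested genes was 0.81, and a flat profile would have 0.78. PRSS33 was chosen for its difference between the siRNAs, which makes up most of its centred profile. The nearest genes are therefore bound to be others with a like rise, from 1.31 for SYP to 1.66 for SGK1 in log2 fold change. The likeness is a description that supports nothing further. PRSS22 was the nearest member with 0.61, at rank 1134.

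The wider protease network was taken from lists. Beside each list stand the shares over all tested genes, of which 1.24% were called, 18.1% had an unadjusted p under 0.05 and 48.5% had a positive log2 fold change. Among 12 tested trypsin-like proteases outside the members, 1 was called, and it was lower. An unadjusted p under 0.05 was found for 7 of the 12, 5 had a positive and 7 a negative log2 fold change, and the median was -0.26. The groups did not overlap for 2 genes that were higher and 4 that were lower. Over all tested genes 11.3% lay apart and higher, and 12% lay apart and lower. PLAU, the urokinase-type plasminogen activator, was the gene that fell, from 49.1, 45.2 and 52.1 FPKM in sicontrol to 20.6, 20.2 and 24.1 FPKM in siPOU2F1. The log2 difference was -1.16 (SE 0.11; limma, adjusted p = 0.015). As for PRSS33 the call was lost without any 1 library other than siPOU2F1 replicate 3 (adjusted p from 0.0751 to 0.114). The replicate block lost it too (limma, adjusted p = 0.235). A further 14 genes of this list were listed at 0 in all libraries.

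The next 3 genes of the list by p were not called. KLK3, a kallikrein known as prostate-specific antigen, had 2.97 ± 0.0933 FPKM in sicontrol and 1.59 ± 0.181 FPKM in siPOU2F1 (-0.73, adjusted p = 0.0734). TMPRSS3, a transmembrane relative of TMPRSS2 and TMPRSS4, had 14.98 ± 2.35 and 9.54 ± 0.277 FPKM (-0.61, adjusted p = 0.087). PRSS56, a secreted relative, had 1.78 ± 0.198 and 3.03 ± 0.633 FPKM (0.62, adjusted p = 0.165). None of the 3 had overlapping groups, but they were named for their low p, so nothing is read from that.

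Of 22 tested protease inhibitors, 1 was called, and it was lower. An unadjusted p under 0.05 was found for 7 of the 22, 12 had a positive and 10 a negative log2 fold change, and the median was 0.089. The groups did not overlap for 4 genes that were higher and 4 that were lower, beside 11.3% and 12% of all tested genes. APLP2, which carries a Kunitz inhibitor domain, fell from 192.95, 180.6 and 189.95 FPKM to 118.3, 123.8 and 103.99 FPKM (-0.70, SE 0.10; limma, adjusted p = 0.032). The call was lost with no filter (adjusted p = 0.0508), without the mean-variance trend (0.0539), with the replicate block (0.297) and without any 1 library other than siPOU2F1 replicate 3 (0.111 to 0.198). SLPI, the secretory leukocyte protease inhibitor, had 14.2 ± 0.731 and 8.03 ± 1.80 FPKM (-0.81, adjusted p = 0.0734), and SERPINA1, the alpha-1-antitrypsin gene, had 241.9 ± 12.3 and 174.8 ± 18.4 FPKM (-0.47, adjusted p = 0.093). SERPINB9, an inhibitor of granzyme B, had -0.44 (adjusted p = 0.142). WFDC2, a secreted protein with whey acidic protein domains, was among the 4 inhibitors whose groups lay apart with siPOU2F1 higher. It had 82.04 ± 11.8 and 118.5 ± 15.7 FPKM (0.53; limma, adjusted p = 0.143). SERPINF2, the alpha-2-antiplasmin gene and another of the 4, had 2.15 ± 0.325 and 3.48 ± 0.411 FPKM (0.59; limma, adjusted p = 0.146). SPINT2, the inhibitor most like SPINT1, had 248.6 ± 5.56 and 262.99 ± 13.6 FPKM, a log2 fold change of 0.080 with a 95% interval of -0.12 to 0.28.

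No gene was called by limma among 15 tested substrates and receptors, of which 12 had a negative log2 fold change, 6 had an unadjusted p under 0.05, and the median was -0.25. PLAUR, the urokinase receptor, had -0.43 (adjusted p = 0.154), GAS6, a ligand of TAM receptors, -0.49 (0.171), CDCP1, a surface protein cut by serine proteases, -0.47 (0.202), and MST1R, the receptor of macrophage-stimulating protein, -0.76 (0.215). EPCAM, a matriptase substrate, differed by 0.015 on the log2 scale (SE 0.084). F2RL1, which encodes PAR2, had -0.18 and SCNN1A, the alpha subunit of the epithelial sodium channel, -0.21.

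No gene was called by limma among 12 tested proprotein convertases and relatives of the PRSS16 family, of which 2 had an unadjusted p under 0.05, with a median of 0.062. PCSK5, a convertase, had -0.37 (adjusted p = 0.189) and PREP, a prolyl oligopeptidase, 0.30 (0.232). MBTPS1, the site-1 protease, had 0.20 (0.346). FURIN, the best known convertase, had 0.027 with an SE of 0.092.

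**Figure D5:**
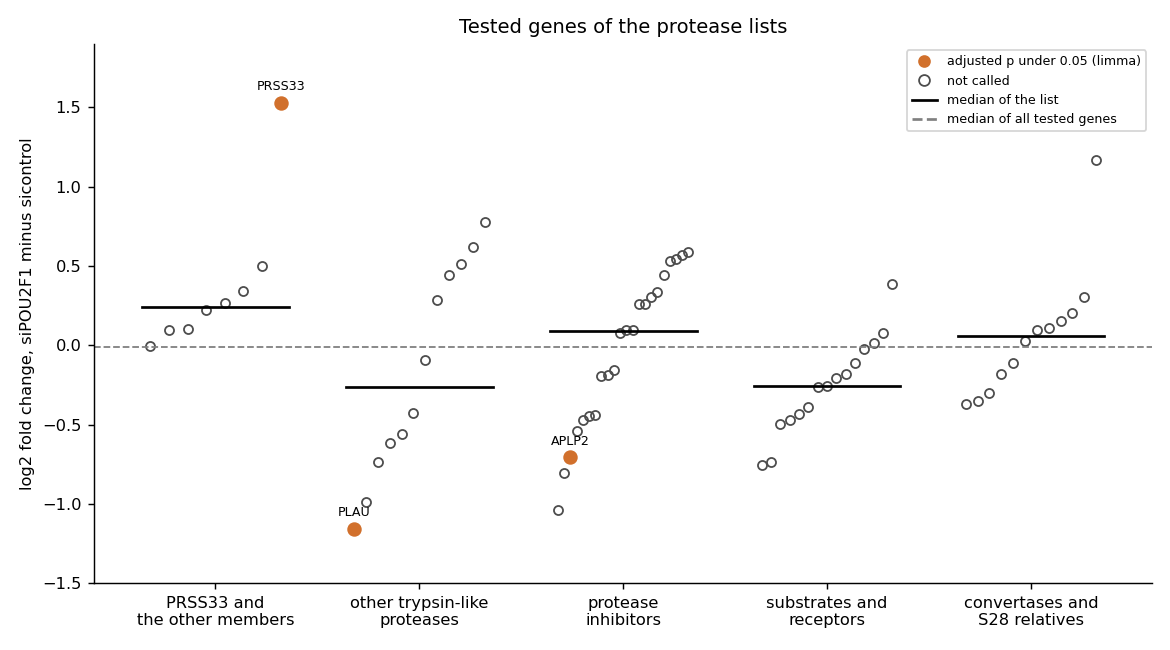
Log2 fold change of each tested gene of the 5 lists, ordered within a list, with the list median as a black line and the median of all tested genes (-0.013) as a dashed line. Filled points have an adjusted p under 0.05 (limma): PRSS33 at 1.53, PLAU at -1.16 and APLP2 at -0.70.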

How the data were processed

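For each library the authors deposited FPKM values of 22782 features, and the 20474 annotated genes were used. HISAT2 2.0.4, StringTie 2.1.2, Bowtie2 2.2.5 and hg38 are named, without roles, per the submitters' processing notes. Annotation, filters and strand setting: not given in the sources used here. Absolute depth is unknown. Ratios of low values gave depths of 0.778 to 0.972 relative to sicontrol replicate 1, each resting on 8 to 16 genes.

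Values were used as deposited, as log2(FPKM + 0.5), for the 11831 genes averaging 1 FPKM or more. The fit used limma 3.58.1 (R 4.3.3), the siRNA as its term and a trended prior. P-values were adjusted by Benjamini and Hochberg's method over all of these genes, and calls needed an adjusted p under 0.05. The procedure was tested on simulated data. Positions and transcripts came from GENCODE 29 (GRCh38), promoters from RefSeq.

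The members and lists were chosen with earlier results of these data known. Named genes are POU2F1, all members, called genes and the 4 with the lowest p of each list, neighbours of PRSS33 within 100 kb, the 5 genes nearest to it in profile, and markers. EPCAM, F2RL1, SCNN1A, FURIN, SPINT2, WFDC2, SERPINF2, PRSS1 and PRSS2 were named after their values were seen. A gene of these lists is not reported here by name. The fits under 15 alternatives are given in the closing section.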

Additional observations from a re-analysis of the deposited data

How the results depend on the processing

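The PRSS33 log2 fold change was positive under all 15 alternatives, from 1.39 to 1.71, and 1.42 to 1.64 with 1 library left out. The filter at a mean of 5 FPKM kept PRSS33 (mean 5.35 FPKM) only through siPOU2F1, since its sicontrol mean was 2.49 FPKM. Nothing is read from the call in that fit. The PRSS33 call was lost with the replicate block (1.53, adjusted p = 0.249) and in 5 of the 6 fits that left out a library. POU2F1 lost its call with no filter (-0.99, adjusted p = 0.065), with the replicate block (-0.99, adjusted p = 0.297) and in 5 of the 6 such fits (-1.06 to -0.95). The counts of genes called higher and lower, 47 and 100, were 24 and 48 with no filter, 2651 and 3312 with array weights, and 0 and 0 with the replicate block, where 1208 genes had an unadjusted p under 0.05 (limma). Without the mean-variance trend 23 were higher. With 1 library left out the counts ran from 0 to 1099 higher and from 0 to 1855 lower, the highest being without siPOU2F1 replicate 3 and the others at most 4 and 5, and the fits without any call had 1176 to 1333 genes with an unadjusted p under 0.05. Members called numbered 6 with array weights, 0 with the replicate block and 0 to 3 with 1 library left out. Of all tested genes, 50.4% were called with array weights and 24.97% without siPOU2F1 replicate 3, the fit with 3 members called. Nothing is read from these member counts. The cause of these shifts was not tested. Whether same-numbered libraries were handled together is not stated in the labels. Their deviations from the group means correlated across genes at 0.13, -0.54 and -0.51, and sicontrol replicate 2 correlated best with siPOU2F1 replicate 3 (0.64). Deviations within a group of 3 sum to 0 and so are tied to each other. These correlations therefore cannot settle whether the libraries pair. Fits without a library assume that the remaining 2 vary like the other group. The unknown depth limits what can be said of PRSS8 and TMPRSS4.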

Other observations

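A pair of kallikreins from the same lists, picked after their values were seen, differed widely between libraries of 1 group. KLK10, a secreted kallikrein, had 36.5, 64.4 and 31.9 FPKM in sicontrol and 13.5, 14.7 and 46.7 FPKM in siPOU2F1, in replicate order. KLK6, a neighbouring kallikrein, measured 72.4, 107.6 and 74.2 FPKM in sicontrol and 45.4, 45.6 and 87.2 FPKM in siPOU2F1. For both, sicontrol replicate 2 was the highest control and siPOU2F1 replicate 3 the highest knockdown library. Their log2 fold changes were -0.99 (SE 0.49; limma, adjusted p = 0.332) and -0.56 (SE 0.28; limma, adjusted p = 0.34).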
